A study of Mus musculus with 12 samples.

Results

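The genes described here encode fibroblast growth factor 23 (FGF23), the hormone with which bone lowers blood phosphate, and proteins that restrain or modify it. Phosphate importers of the cell surface are included as well. All genes were chosen by name: Fgf23, Phex, Dmp1, Fam20c, Galnt3, Furin, Slc20a1 and Slc20a2 are 8 of the 56350 genes of the count table, and each symbol had 1 row. Messenger RNA was sequenced from MPC2 cells, a conditionally immortalized mouse mesenchymal line that is 1 clone. The cells were either left undifferentiated in growth conditions at 33 °C (called MSCs) or differentiated for 3 weeks at 37 °C with beta-glycerophosphate and ascorbic acid (called osteocytes), so that temperature and medium changed together with differentiation and cannot be told apart from it. Both were then given vehicle (DMSO) or 50 µM FG-4592 (Roxadustat) for 48 h, with 3 libraries in each of the 4 groups. FG-4592 inhibits the prolyl hydroxylases that mark hypoxia-inducible factors (HIF) for degradation and therefore mimics low oxygen. The study set out to learn how bone cells tie oxygen sensing to FGF23, and the comparisons below ask how these genes responded to FG-4592 in each cell state and how they differed between the states.

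In the skeleton FGF23 is made mainly by osteoblasts and osteocytes. It acts on the kidney through FGF receptors and the co-receptor Klotho, where it reduces phosphate reabsorption and active vitamin D. PHEX, an endopeptidase of the cell surface, and DMP1, a matrix phosphoprotein, keep FGF23 low, and loss of either gene causes hypophosphatemic rickets with high FGF23. The hormone circulates intact or cleaved: GALNT3 adds an O-glycan beside the cleavage site that protects FGF23, the Golgi kinase FAM20C phosphorylates it and thereby hinders that glycosylation, and the proprotein convertase FURIN cuts it. SLC20A1 (PiT-1) and SLC20A2 (PiT-2) are sodium-dependent phosphate importers found in most cells, including those of bone.

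Libraries held 52829185 to 68108470 counts. FG-4592 acted in both cell states: of 8 HIF target genes used as a treatment check, 6 were called higher in MSCs and 8 in osteocytes, where 4.12% and 6.25% of all genes were. Egln3 and Car9, the genes called only in osteocytes, exceeded 10 counts in 3 libraries only through the FG-4592 osteocytes, so the filter favoured their calls. The summed level of the 8 went from 183.5 to 207.0 CPM (a gene's count scaled to the library's total over the tested genes after adjustment by its TMM factor) in vehicle MSCs to 1882 to 1937 with FG-4592, and from 204.2 to 227.3 to 2170 to 2283 in osteocytes. Of 7 osteocyte markers, Sost, Mepe and Pdpn had at most 3 counts in every library of all 4 groups, and of the 4 tested Phex and Dmp1 rose and Capg fell with differentiation. Adipocyte markers rose with differentiation, 4 of the 4 tested of 5 listed, where 9.83% of all genes were called higher. One of the 4, Cidec, passed the filter only through the differentiated libraries, so its rise was favoured too, while Adipoq, Plin1 and Fabp4 exceeded 10 counts in every library. Their summed level was 10.97 to 12.4 CPM in vehicle MSCs, 6.36 to 7.66 in MSCs given FG-4592, 1566 to 2181 in vehicle osteocytes and 1813 to 2183 in osteocytes given FG-4592, with Lep at 3 counts or fewer in every library. Chondrocyte markers summed to 83.9 to 93.3 CPM in vehicle MSCs, 148.2 to 164.5 in MSCs with FG-4592, 114.4 to 135.3 in vehicle osteocytes and 376.4 to 456.3 in osteocytes with FG-4592, with Acan at 3 counts or fewer in every library. In MSCs Sox9 made up most of the sum, going from 84.2 CPM with vehicle to 154.0 with FG-4592. There Col2a1 went from 0.771 to 1.31 CPM, Col10a1 from 2.03 to 2.82 and Comp, in the other direction, from 1.12 to 0.443. Blood and vessel markers summed to 1.08 to 2.08 CPM over all libraries. The part of these other cell types in the results below was not tested, and in bulk libraries fewer cells of a type and less RNA per cell cannot be told apart.

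All 8 genes are protein coding. On mouse build mm10 (GRCm38) Fgf23 lies at chr6:127072902-127081408 on the plus strand, Phex at chrX:157162075-157415312 on the minus strand, Dmp1 at chr5:104202613-104214102 on the plus strand and Fam20c at chr5:138754514-138810077 on the plus strand. Galnt3 lies at chr2:66082766-66124994 on the minus strand, Furin at chr7:80388585-80405436 on the minus strand, Slc20a1 at chr2:129198764-129211616 on the plus strand and Slc20a2 at chr8:22476788-22569612 on the plus strand. RefSeq start sites on GRCm38.p6 were matched for 7 of the 8 genes, all but Slc20a2. The 250 bases before the start are printed 5′ to 3′ for Fgf23, which rose with FG-4592 in osteocytes, and for Phex and Dmp1, which fell. Capitals mark ACGTG or GCGTG, the core letters of a hypoxia response element, read on either strand, where they appear as CACGT or CACGC. The letters CACGTG hold both an ACGTG and an overlapping CACGT. Of all 32851 promoters in the table, 38.6% held a match, so a match alone is common. The Fgf23 window is chr6:127072652-127072901, the Phex window chrX:157415287-157415536, and Dmp1 has an upstream start with window chr5:104197325-104197574 and a downstream start, the one at the 5′ end of the counted gene model, with window chr5:104202367-104202616.
Fgf23: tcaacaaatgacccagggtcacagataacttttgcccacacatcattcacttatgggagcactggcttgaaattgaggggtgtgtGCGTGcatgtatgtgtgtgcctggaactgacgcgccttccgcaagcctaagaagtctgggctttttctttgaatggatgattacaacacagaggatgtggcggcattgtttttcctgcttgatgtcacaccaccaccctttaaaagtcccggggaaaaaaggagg
Phex: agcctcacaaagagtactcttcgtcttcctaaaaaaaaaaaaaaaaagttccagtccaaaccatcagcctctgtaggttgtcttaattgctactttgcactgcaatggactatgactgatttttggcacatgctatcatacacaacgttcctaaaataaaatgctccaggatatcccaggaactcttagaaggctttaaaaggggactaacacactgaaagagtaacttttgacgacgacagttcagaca
Dmp1, upstream start: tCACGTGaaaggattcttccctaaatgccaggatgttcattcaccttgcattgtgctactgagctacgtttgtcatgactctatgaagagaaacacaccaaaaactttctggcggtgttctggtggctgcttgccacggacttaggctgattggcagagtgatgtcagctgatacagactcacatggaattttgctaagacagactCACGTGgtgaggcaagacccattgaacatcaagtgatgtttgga
Dmp1, downstream start: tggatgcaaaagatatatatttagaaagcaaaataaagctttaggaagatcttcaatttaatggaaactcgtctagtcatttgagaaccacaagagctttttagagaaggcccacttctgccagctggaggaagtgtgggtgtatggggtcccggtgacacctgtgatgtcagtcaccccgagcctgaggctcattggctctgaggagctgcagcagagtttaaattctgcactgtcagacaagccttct

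The Fgf23 window held 1 match, GCGTG beginning 165 bases before the start. Phex and the downstream Dmp1 start held none of these letters, and the upstream Dmp1 start held a CACGTG beginning 249 bases and another beginning 44 bases before it. Of the other members, Galnt3 held 1 match, the 2 Furin starts 1 and 2, the 2 Slc20a1 starts 5 and 1, and Fam20c none. Over all 10 windows of the members, 7 held a match. The genes with a match thus included Fgf23, which rose, Slc20a1, which fell in osteocytes, and Furin, whose response to FG-4592 did not pass the test in either cell state.

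Fgf23 transcripts were almost absent from 3 of the groups and appeared in osteocytes given FG-4592. The libraries of vehicle MSCs held 0, 1 and 8 counts, those of MSCs with FG-4592 held 1, 4 and 5, those of vehicle osteocytes held 5, 0 and 0, and those of osteocytes with FG-4592 held 125, 79 and 98. In the last group the level was 1.61 ± 0.316 CPM (SD, n = 3), each library far above every other library, while the 9 others lay between 0 and 0.126 CPM. Here 3 counts, the floor below which a level is not told from 0, were worth 0.0447 to 0.0545 CPM. By counts alone the 302 reads against 5 in osteocytes gave a ratio of 59.4, with an exact interval of 25.2 to 184.2 that covers counting error only. Intervals of this kind do not include the spread between libraries, and PCR copies are not independent molecules.

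Fgf23 passed the filter on low counts only through the FG-4592 osteocytes, so it had to differ to be tested, and its fitted values for that group are given as a description. In the fit over all genes, its log2 fold change in osteocytes was 5.81 (SE 1.07, 95% interval 3.53 to 8.08, FDR 6.68e-05). FDR is the Benjamini-Hochberg adjusted p of edgeR's quasi-likelihood test over the 16484 genes tested, and a gene was called where it was under 0.05 and the absolute log2 fold change above 1. The size of the rise rested on the first vehicle library: without it both remaining vehicle libraries were at 0, and the fitted value went to 9.63, which is no bound. Against their own floor of 3 counts, the mean of the FG-4592 osteocytes was at least 29.9-fold higher than the second vehicle library and at least 33.0-fold higher than the third. Without any 1 of the 3 FG-4592 osteocyte libraries Fgf23 was not tested.

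In MSCs the summed counts of Fgf23 were 10 with FG-4592 and 9 with vehicle, a ratio of 1.04 with a counting interval of 0.380 to 2.89, and the libraries overlapped (log2 fold change 0.072, 95% interval -2.23 to 2.37, FDR 0.969). Differentiation under vehicle gave a log2 fold change of -0.84 (95% interval -3.49 to 1.81, FDR 0.578). A change of several fold was therefore not detectable at this depth in either comparison. The fitted FG-4592 response in osteocytes minus that in MSCs was 5.74 on the log2 scale (SE 1.52, FDR 0.00888), which the filter favours in the same way. That difference lost the call without the third vehicle MSC library, the one with 8 counts, where it was 3.42 with an FDR of 0.401, and it was 9.53 without the first vehicle osteocyte library.

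**Figure D1:**
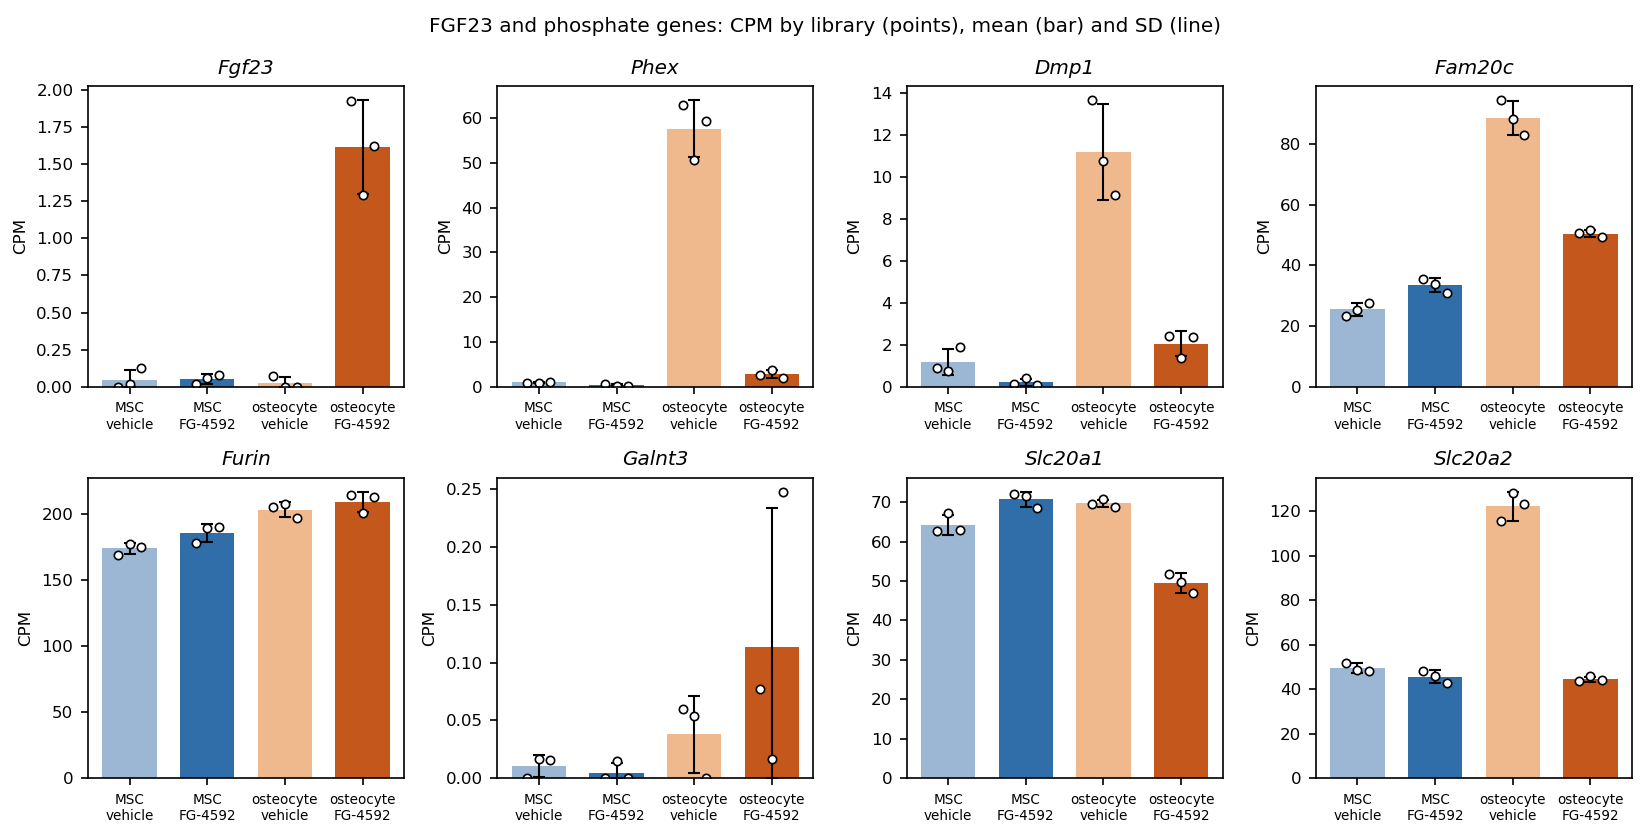
CPM of each of the 8 genes (vertical axis, linear from 0, own range per panel) in the 4 groups: bars are means, lines the SD and points the 3 libraries of a group. Fgf23 stands at 1.61 CPM in FG-4592 osteocytes and at or below 0.0515 in the means of the other groups, Phex, Dmp1, Fam20c and Slc20a2 peak in vehicle osteocytes, Furin stays between 174.2 and 209.4 CPM, and the Galnt3 panel reaches only 0.248 CPM.

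Phex was low in MSCs, high in vehicle osteocytes and low again in osteocytes given FG-4592. Vehicle MSCs held 53, 52 and 70 counts, MSCs with FG-4592 held 37, 14 and 13, vehicle osteocytes held 4181, 2817 and 3642, and osteocytes with FG-4592 held 172, 231 and 125. These correspond to 0.977 ± 0.116, 0.344 ± 0.240, 57.6 ± 6.32 and 2.83 ± 0.871 CPM (SD, n = 3 each). No library of a group overlapped with a library of any other group. Phex rose with differentiation by a log2 fold change of 5.88 (SE 0.243, FDR 6.72e-12), and FG-4592 lowered it in osteocytes to 0.0491 of the vehicle level (log2 fold change -4.35, SE 0.198, FDR 7.98e-11). In MSCs it fell as well, with a log2 fold change of -1.53 (SE 0.373, FDR 0.00269), and this was -2.24 without the first FG-4592 library, which at 37 counts lay nearest to the vehicle libraries. The fall was larger in osteocytes by -2.81 on the log2 scale (SE 0.422, FDR 0.000301), or -2.11 without that same library.

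Osteocytes given FG-4592 still held more Phex than vehicle MSCs (log2 fold change 1.53, FDR 7.54e-05). The gene is thus ordered as MSCs with FG-4592, vehicle MSCs, osteocytes with FG-4592 and vehicle osteocytes, each step passing the test.

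Dmp1, like Phex, rose with differentiation and fell with FG-4592 in both cell states. Its counts were 49, 46 and 121 in vehicle MSCs, 8, 28 and 6 in MSCs with FG-4592, 907, 599 and 561 in vehicle osteocytes, and 157, 85 and 144 in osteocytes with FG-4592. The group means were 1.19 ± 0.622, 0.215 ± 0.176, 11.2 ± 2.30 and 2.06 ± 0.582 CPM (SD, n = 3). In each cell state all FG-4592 libraries lay below all vehicle libraries. Differentiation raised Dmp1 by a log2 fold change of 3.23 (SE 0.347, FDR 1.46e-06). FG-4592 lowered it by -2.44 on the log2 scale in MSCs (SE 0.496, FDR 0.000555) and by -2.44 in osteocytes (SE 0.331, FDR 2.12e-05). The difference between these falls had a 95% interval of -1.27 to 1.27 (FDR 0.997), which leaves room for unequal falls, and the MSC value went to -3.37 without the second FG-4592 library, the one with 28 counts. Vehicle MSCs and FG-4592 osteocytes were not shown to differ (log2 fold change 0.79, SE 0.363, FDR 0.0720), and their libraries overlapped.

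The third vehicle MSC library had the highest value of its group for all 3 of Fgf23, Phex and Dmp1, at 0.126, 1.10 and 1.90 CPM, and the first vehicle osteocyte library the highest of its group, at 0.0753, 63.0 and 13.7 CPM. Fam20c was highest in the same libraries, at 27.7 and 94.3 CPM, and the Fgf23 values rest on 8 and 5 counts. The list of 7 osteoblast markers shares Alpl and Ibsp with the lists described further on. With FG-4592, 2 were called lower in MSCs and 3 in osteocytes, where 5.17% and 4.26% of all genes were. A further 2 markers in MSCs and 3 in osteocytes passed the FDR, which 38.1% and 43.8% of all genes passed. In osteocytes Runx2, Sp7, Alpl, Bglap, Bglap2 and Ibsp all had negative values, from -0.38 for Runx2 to -1.55 for Ibsp, and Col1a1 gave 0.11 (FDR 0.363). Col1a1, at 2749 CPM in vehicle osteocytes and 2971 with FG-4592, made up most of the summed level, which was 3004 to 3359 CPM in vehicle MSCs, 2752 to 2962 with FG-4592, 2858 to 3326 in vehicle osteocytes and 2897 to 3814 with FG-4592. Mesenchymal progenitor markers, 4 of 5 tested, summed to 458.5 to 478.4 CPM in vehicle MSCs, 627.5 to 639.8 with FG-4592, 293.7 to 335.5 in vehicle osteocytes and 564.0 to 592.7 with FG-4592. Among them Ly6a, which encodes the surface protein Sca-1, rose in osteocytes from 55.8 to 319.7 CPM (log2 fold change 2.52, FDR 5.97e-12) and carried most of the rise in the sum. Eng went from 120.3 to 122.1 CPM and Cd44 from 117.0 to 104.0, neither passing the test, while Nt5e stood at 0.464 CPM in vehicle MSCs, 18.7 in vehicle osteocytes and 32.4 in osteocytes with FG-4592. In MSCs Ly6a went from 215.6 CPM with vehicle to 396.0 with FG-4592 and Cd44 from 125.8 to 131.3. There Eng went from 127.3 to 105.9 CPM and Nt5e from 0.464 to 0.229. Thy1 had at most 6 counts in any library. The part of either list in the falls of Phex and Dmp1 was not tested.

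Among the genes whose products modify FGF23, Fam20c, the secretory pathway kinase, changed in opposite directions in the cell states. It had 1289, 1521 and 1765 counts in vehicle MSCs and 2118, 2280 and 1982 with FG-4592, against 6261, 4902 and 5103 in vehicle osteocytes and 3281, 3155 and 2980 with FG-4592. The levels were 25.5 ± 2.16, 33.5 ± 2.33, 88.5 ± 5.65 and 50.4 ± 1.20 CPM (SD, n = 3), and no groups overlapped. Differentiation raised Fam20c by a log2 fold change of 1.79 (SE 0.0710, FDR 6.54e-12). FG-4592 raised it in MSCs by 0.39 (SE 0.0721, FDR 0.000397) and lowered it in osteocytes by -0.81 (SE 0.0698, FDR 9.96e-08), both under the fold threshold. The difference between the responses was -1.20 (SE 0.10, FDR 3.65e-07) and was called. From low to high the groups stood as vehicle MSCs, MSCs with FG-4592, osteocytes with FG-4592 and vehicle osteocytes, and each step passed the test.

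Furin, the convertase, was the most abundant member in CPM in every group, and its response to FG-4592 did not pass the test in either cell state. Its counts were 9325, 10638 and 11164 in vehicle MSCs, 10615, 12735 and 12168 with FG-4592, 13642, 11538 and 12103 in vehicle osteocytes and 13915, 12282 and 12916 with FG-4592. Means lay at 174.2 ± 4.29, 186.0 ± 6.77, 203.2 ± 5.61 and 209.4 ± 7.46 CPM (SD, n = 3). The highest group, FG-4592 osteocytes, exceeded the lowest, vehicle MSCs, by a log2 fold change of 0.27 (SE 0.0467, FDR 0.000123), and their libraries did not overlap. In MSCs the response was small (log2 fold change 0.095, 95% interval -0.0047 to 0.19, FDR 0.128), although these libraries did not overlap, and likewise in osteocytes (0.043, 95% interval -0.056 to 0.14, FDR 0.495). Differentiation under vehicle gave 0.22 (SE 0.0467, FDR 0.000824). The Furin model shares 118 exonic bases with Gm44851, which had 117 counts over all libraries, and its transcripts share runs of 100 identical bases with Gm44851, Gm48610 and Gm48735.

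Galnt3, the glycosyltransferase that protects FGF23, was at the limit of detection. Vehicle MSCs held 0, 1 and 1 counts, MSCs with FG-4592 held 0, 1 and 0, vehicle osteocytes held 4, 3 and 0, and osteocytes with FG-4592 held 5, 1 and 15. Groups overlapped within each cell state, and 1 FG-4592 library carried 15 of the 21 counts of its group. It did not reach more than 10 counts in 3 libraries and was not tested. The count ratio in osteocytes, 21 against 7, was 2.95 with a counting interval of 1.21 to 8.21, and with no filter on low counts edgeR's quasi-likelihood test gave an FDR of 0.585. Since Galnt3 held so few counts, the log2 ratio of Furin to Galnt3 per kilobase, computed with 0.5 counts added to each, was imprecise. It was 12.2 ± 0.786 in vehicle MSCs and 12.9 ± 0.826 with FG-4592 (exact two-sided permutation test, p = 0.2), and 11.5 ± 1.70 and 10.3 ± 1.65 in osteocytes (exact permutation p = 0.4, SD, n = 3). Adjusted over the 4 ratio tests these were 0.267 and 0.4, and the libraries overlapped in both states.

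The phosphate importers responded unequally to FG-4592 in osteocytes, where Slc20a2 fell by more than Slc20a1. Slc20a2 had 2864, 2908 and 3067 counts in vehicle MSCs, 2876, 3098 and 2731 in MSCs with FG-4592, 7666, 7138 and 7569 in vehicle osteocytes and 2846, 2799 and 2670 in osteocytes with FG-4592. Levels were 49.6 ± 2.11, 45.7 ± 2.84, 122.3 ± 6.46 and 44.6 ± 1.06 CPM (SD, n = 3). Every vehicle osteocyte library lay above every library of the other groups. The gene rose with differentiation by a log2 fold change of 1.30 (SE 0.0576, FDR 2.26e-11), and FG-4592 lowered it in osteocytes to 0.364 of the vehicle level (log2 fold change -1.46, SE 0.0577, FDR 7.70e-12). In MSCs the response was -0.12 (95% interval -0.24 to 0.0058, FDR 0.127). The responses differed by -1.34 (SE 0.0821, FDR 1.46e-08). Neighbours among the 3 lower groups were not shown to differ, while the outer pair of these, FG-4592 osteocytes and vehicle MSCs, differed by -0.15 (FDR 0.0317). Its model shares 95 exonic bases with Smim19, on the other strand, which had 15640 counts over all libraries, and reads were counted without strand.

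Slc20a1 had 3447, 4024 and 4003 counts in vehicle MSCs, 4290, 4802 and 4384 with FG-4592, 4621, 3933 and 4231 in vehicle osteocytes and 3359, 3049 and 2841 with FG-4592. Its levels were 64.2 ± 2.57, 70.7 ± 1.92, 69.7 ± 0.943 and 49.5 ± 2.43 CPM (SD, n = 3), and the FG-4592 osteocytes lay below all other libraries. It fell in osteocytes by -0.49 on the log2 scale (SE 0.0513, FDR 8.28e-07), under the fold threshold. In MSCs the value was 0.14 (SE 0.0511, FDR 0.0441), and the FDR no longer passed with upper-quartile scaling (0.101), library size alone (0.448), no filter (0.208) or the likelihood ratio test (0.0545), nor without vehicle library 1 (FDR 0.0718) or 3 (0.0571) or FG-4592 library 1 (0.121) or 2 (0.114). The responses differed by -0.63 (SE 0.0724, FDR 1.12e-05). Vehicle MSCs, vehicle osteocytes and FG-4592 MSCs followed each other in level, and neither pair of neighbours was shown to differ (FDR 0.0667 and 0.767). The gene model shares 452 exonic bases with 9830144P21Rik and 280 with Gm4430, both on the other strand, and Gm4430 had 5501 counts over all libraries.

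Per kilobase of exon, the scale on which genes can be compared, Slc20a2 made up 40.9 ± 1.70% of the summed importer transcripts in vehicle MSCs, 36.7 ± 0.853% in MSCs with FG-4592, 61.1 ± 1.15% in vehicle osteocytes and 44.7 ± 1.34% in osteocytes with FG-4592 (SD, n = 3). The sum of both importers was 19.5, 20.0, 32.2 and 16.0 CPM per kilobase in the same order. The log2 ratio of Slc20a1 to Slc20a2 was 0.53 ± 0.10 in vehicle MSCs, 0.79 ± 0.053 with FG-4592, -0.65 ± 0.070 in vehicle osteocytes and 0.31 ± 0.078 with FG-4592. Slc20a2 thus exceeded Slc20a1 in the vehicle osteocytes and was below it in the other groups. The ratio was higher with FG-4592 by 0.26 in MSCs and by 0.96 in osteocytes, with no overlap of libraries, and the exact two-sided permutation test gave p = 0.1 for each, the smallest that 3 against 3 libraries allow (0.2 adjusted over the 4 ratio tests).

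**Figure D2:**
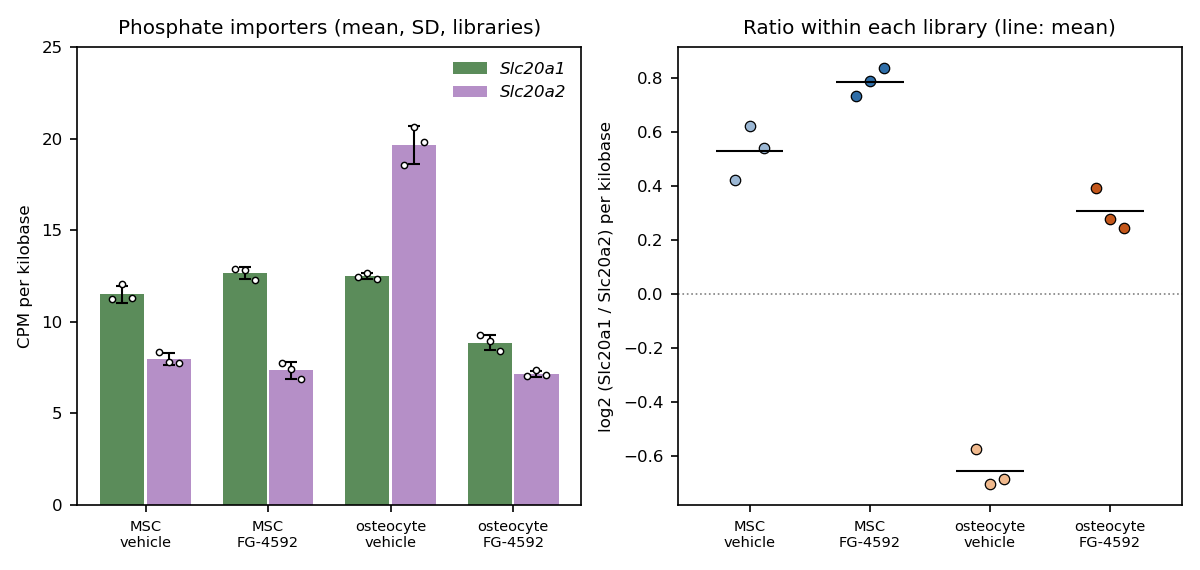
Left, CPM per kilobase of exon of Slc20a1 and Slc20a2 in the 4 groups (bars are means, lines the SD, points the 3 libraries); right, the log2 ratio of Slc20a1 to Slc20a2 per kilobase in each library, with a line at each group mean. The ratio is below 0 only in the vehicle osteocytes, at -0.65, and stands at 0.31 in osteocytes given FG-4592.

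Per kilobase, vehicle osteocytes held Furin at 22.1, Slc20a2 at 19.7, Fam20c at 13.4, Slc20a1 at 12.5, Phex at 9.16, Dmp1 at 4.05, Fgf23 at 0.0138 and Galnt3 at 0.0087 CPM per kilobase. With FG-4592 the osteocytes held Furin at 22.8, Slc20a1 at 8.87, Fam20c at 7.65, Slc20a2 at 7.17, Fgf23 at 0.888, Dmp1 at 0.746, Phex at 0.450 and Galnt3 at 0.026 CPM per kilobase. Phex and Dmp1 exceeded Fgf23 in the vehicle osteocytes. With FG-4592 every Phex library lay below every Fgf23 library (0.450 ± 0.138 against 0.888 ± 0.174, SD). The Dmp1 mean was also below that of Fgf23, at 0.746 ± 0.211, but their libraries overlapped. Differences between these genes were not tested.

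Counted over the members, 7 of the 8 were tested. Fgf23 was called in osteocytes and in the difference between the responses, but it passed the filter only through the FG-4592 osteocytes. That favoured both calls, so Fgf23 is set aside in the counts that follow, which cover the other 6. In osteocytes FG-4592 raised 0 of these, where 6.25% of all genes were called higher, and lowered 3, Phex, Dmp1 and Slc20a2, where 4.26% were called lower. At FDR alone 5 of 6 passed, against 43.8% of all genes. In MSCs 0 were called higher and 2, Phex and Dmp1, lower, where the shares of all genes were 4.12% and 5.17%. At FDR alone 4 of 6 passed in MSCs, against 38.1%. Over all 8 genes, Fgf23 and Galnt3 included, the libraries of FG-4592 and vehicle did not overlap for 5 in MSCs and 6 in osteocytes, as for 50.5% and 51.8% of all tested genes. The median log2 fold change over the 6 genes was -0.012 in MSCs and -1.13 in osteocytes, with -0.045 and 0.0015 over all genes.

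Differentiation under vehicle raised 4 members, Phex, Dmp1, Fam20c and Slc20a2, and lowered 0, where 9.83% and 6.08% of all genes were called. At FDR alone 5 of 6 passed, against 51% of all genes, and vehicle libraries of MSCs and osteocytes did not overlap for 6 of the 8 genes, as for 56.9% of all tested genes. The median log2 fold change over the 6 genes was 1.55, with -0.0064 over all genes. The adipocyte markers rose in the same libraries, as given above. The difference between the FG-4592 responses of osteocytes and MSCs was called as higher in osteocytes for 0 of the 6 and as lower for 3, Phex, Fam20c and Slc20a2, where 3.94% and 1.07% of all genes were called, and 4 of 6 passed at FDR alone against 24.3%. The members that differentiation raised were Phex, Dmp1, Fam20c and Slc20a2, and the vehicle osteocytes enter both that comparison and the FG-4592 comparison of osteocytes, so the rise and the fall share 3 libraries.

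**Figure D3:**
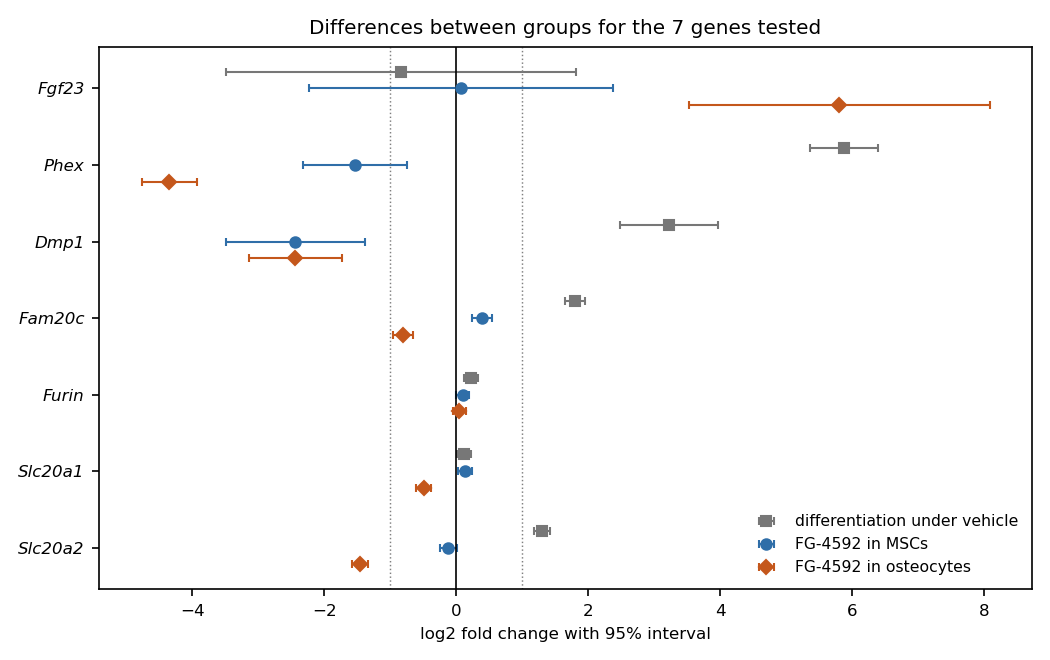
Log2 fold change (horizontal axis, points) with 95% intervals (lines) of the 7 tested genes for differentiation under vehicle, FG-4592 in MSCs and FG-4592 in osteocytes; dotted lines mark the fold threshold of 1. In osteocytes Fgf23 lies at 5.81, Phex at -4.35, Dmp1 at -2.44 and Slc20a2 at -1.46, while the 3 Furin points lie between 0.043 and 0.22.

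The families around the members were described from lists of related genes. Of the matrix phosphoproteins related to DMP1, 3 of 5 were tested, and Dmp1 and Ibsp fell in both cell states, where 5.17% of all genes were called lower in MSCs and 4.26% in osteocytes. Ibsp, bone sialoprotein, had 3535, 3549 and 3517 counts in vehicle MSCs and 181, 219 and 255 with FG-4592 (log2 fold change -4.12, FDR 3.39e-10), and went from 2470, 1973 and 2094 to 483, 1054 and 718 in osteocytes (-1.55, FDR 5.91e-06). It lies next to Dmp1, 85069 bases away. Its fall was larger in MSCs, by 2.57 on the log2 scale (FDR 7.32e-06), unlike that of Phex. Spp1, osteopontin, rose in MSCs by 0.52 (FDR 0.000203) and gave -0.073 in osteocytes (FDR 0.545).

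Of the M13 endopeptidases related to PHEX, 4 of 7 were tested, and Phex was the 1 called, lower in both cell states, where 5.17% of all genes were called lower in MSCs and 4.26% in osteocytes. Mme, neprilysin, fell in both states under the fold threshold, by -0.84 in MSCs (FDR 5.37e-08) and -0.91 in osteocytes (FDR 1.45e-08), and Ece1 rose in osteocytes by 0.72 (FDR 1.15e-08). Of the 4 secretory pathway kinases, Fam20c included, 0 were called in either cell state. Beside Fam20c, Pkdcc passed the FDR in MSCs (0.70, FDR 0.000104) and Fam20a in osteocytes (-0.20, FDR 0.0224), where 38.1% and 43.8% of all genes passed.

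Among the proprotein convertases, 5 of 9 were tested and 1 was called, Pcsk6 in osteocytes, where 6.25% of all genes were called higher. Pcsk6, which encodes PACE4, had 2058, 2494 and 2581 counts in vehicle osteocytes and 21201, 20132 and 22399 with FG-4592. These groups were far apart, at a log2 fold change of 3.12 (SE 0.0965, FDR 6.42e-13). In MSCs the counts were 3999, 4201 and 4749 with vehicle and 2777, 3234 and 3242 with FG-4592, a fall by -0.58 (FDR 0.000166), and the responses differed by 3.70 (SE 0.137, FDR 8.90e-11). Per kilobase Pcsk6 went from 7.57 to 65.9 CPM in osteocytes, from below to above Furin at 22.8.

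Of the polypeptide GalNAc transferases, the family of GALNT3, 11 of 19 were tested, 0 were called in MSCs and 2 in osteocytes, 1 higher and 1 lower, where 6.25% and 4.26% of all genes were called. Galnt15 rose there from 62, 66 and 54 to 203, 163 and 184 counts (log2 fold change 1.56, FDR 0.000257), and Galnt13 fell from 1665, 1206 and 1299 to 822, 628 and 472 (-1.14, FDR 1.14e-06). A further 5 passed the FDR under the fold threshold in each cell state, where 38.1% of all genes passed it in MSCs and 43.8% in osteocytes. Of the tolloid proteinases and their enhancer, all 4 listed were tested, and Tll1 was called higher in MSCs, as were 4.12% of all genes, going from 107, 143 and 92 to 237, 286 and 229 counts (log2 fold change 1.03, FDR 0.0248).

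Of 8 phosphate transporters, 5 were tested and Slc20a2 in osteocytes was the 1 called, where 4.26% of all genes were called lower. Xpr1, the phosphate exporter, fell by -0.20 in MSCs (FDR 0.00885) and -0.15 in osteocytes (FDR 0.0341). The transporter genes Slc34a1, Slc34a2 and Slc34a3 had at most 4 counts in any library. Of 6 genes of pyrophosphate and phosphate release, all tested, 1 was called higher, 1 lower and 2 more passed the FDR in MSCs, and 1 was called higher and the other 5 passed the FDR in osteocytes. Of all genes, 4.12% were called higher, 5.17% lower and 38.1% passed the FDR in MSCs, with 6.25%, 4.26% and 43.8% in osteocytes. Alpl, the alkaline phosphatase of mineralizing cells, fell in MSCs (-1.99, FDR 4.81e-10) and, under the fold threshold, in osteocytes (-0.83, FDR 7.48e-06). Phospho1, a phosphatase of matrix vesicles, rose in both states, by 1.93 (FDR 1.85e-07) and 1.04 (FDR 0.000268). The other 4 rose in osteocytes under the fold threshold, with Enpp1 at 0.71, Ank at 0.33, Entpd5 at 0.68 and Smpd3 at 0.99.

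Of 5 FGF23 receptor genes, Fgfr1, Fgfr2 and Fgfr3 were tested. Fgfr1 rose under the fold threshold in both states, by 0.50 in MSCs (FDR 3.84e-06) and 0.55 in osteocytes (FDR 9.98e-07). Fgfr2 had 1035, 1127 and 1430 counts in vehicle MSCs and 262, 264 and 248 with FG-4592 (log2 fold change -2.30, FDR 2.52e-12), and 9861, 8356 and 9620 against 9745, 8843 and 9834 in osteocytes (0.0057, 95% interval -0.14 to 0.15, FDR 0.956). Kl, which encodes Klotho, had 1 count in all 12 libraries together. Of 15 upstream regulators of FGF23, 9 were tested, 0 were called in either cell state, and 2 in MSCs and 7 in osteocytes passed the FDR, as did 38.1% and 43.8% of all genes. Vdr, the vitamin D receptor, belonged to these, falling in MSCs by -0.74 (FDR 1.61e-07) and rising in osteocytes by 0.76 (FDR 1.03e-07), a difference of 1.50 (FDR 1.54e-08).

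**Figure D4:**
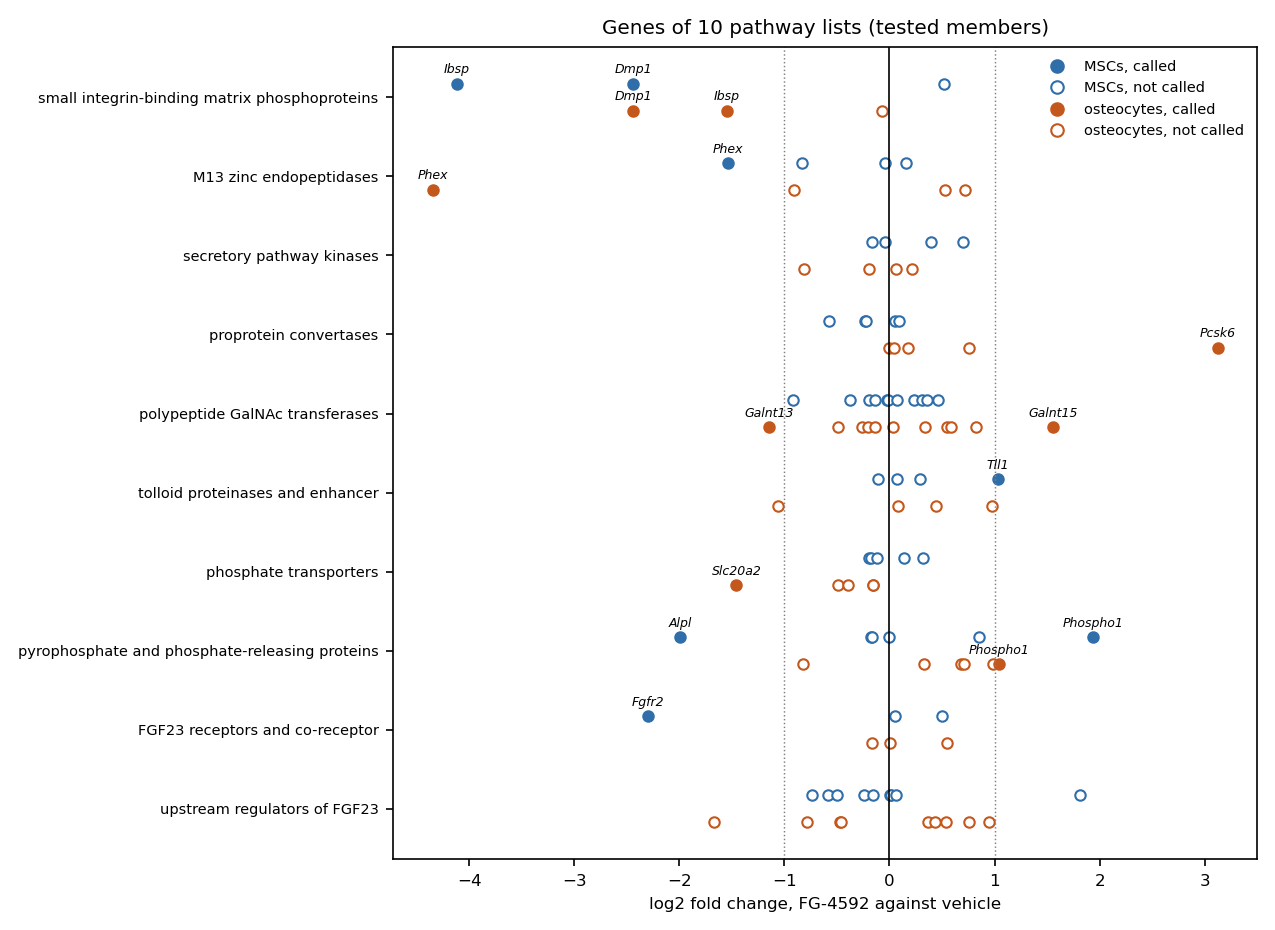
Log2 fold change with FG-4592 against vehicle (horizontal axis) of the tested genes of 10 lists (vertical axis), in MSCs and osteocytes; filled points are called genes and carry their name, open points are not called, and dotted lines mark the fold threshold. In osteocytes Pcsk6 lies at 3.12 and Phex at -4.35, outside the range of the other tested genes of their lists.

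The 5 genes whose log2 CPM over the 12 libraries was most like Fgf23, of 13273 compared, were Ccdc191 (Pearson r 0.970), Rnpepl1 (0.966), Samd9l (0.962), Ctdsp2 (0.959) and Dip2b (0.957). Their own rises with FG-4592 in osteocytes were small, at log2 fold changes of 0.50 to 0.94, against 5.81 for Fgf23. Among the 5 most like Phex were Runx2 (0.986), Cerk (0.985) and Lhfpl2 (0.984). Runx2, which encodes a transcription factor of osteoblasts, stood at 128.3 CPM in vehicle MSCs, 116.8 with FG-4592, 189.5 in vehicle osteocytes and 145.2 with FG-4592. The libraries fall into 4 groups, so these values describe a shared pattern of group means.

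Of the nearest coding genes of Fgf23 and Phex, 1 of each was tested. Tigar, 3708 bases from Fgf23, gave -0.31 in osteocytes (FDR 0.0378), against 5.81 for Fgf23, and Fgf6 on the other side was too low to be tested. Sms, 28543 bases from Phex, fell by -0.42 in osteocytes (FDR 0.000136), against -4.35 for Phex, and Gm15155 on the other side was not tested.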

How the data were processed

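The authors mapped paired reads to mm10 with STAR 2.7.2a and deposited raw counts per gene, made with featureCounts (Subread 1.6.2) on Gencode M22 from read pairs of sufficient mapping quality. A pair overlapping several genes was counted for each, without strand. Nothing states that replicates are separate cultures, so p-values measure the spread between these libraries. Genes were kept where 3 or more libraries exceeded 10 counts (16484 of 56350), and were fitted with TMM scaling and edgeR 4.0.16's quasi-likelihood test, 12 libraries in one fit with 8 residual degrees of freedom and 1 coefficient per group, in R 4.3.3. Standard errors and intervals came from the weights of that fit. The script was tested on simulated data. CPM were divided by exonic length for values per kilobase. Promoter letters were read from RefSeq. Members, lists and tests were chosen with earlier results of these data known. All 8 members are named; of each pathway list (not of the marker lists), genes called with FG-4592 in either state, at most 3 per list and comparison, and others after their values were seen. Replicate pairs of libraries differed by more than sampling noise. Alternatives were other scalings and filters, DESeq2 1.42.0, edgeR's likelihood ratio test, a replicate block, only the libraries compared, and each library left out. Some of the genes most like Phex are not reported here.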

Additional observations from a re-analysis of the deposited data

Results flagged for a closer look

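The difference between the FG-4592 responses of osteocytes and MSCs passed both the FDR and the fold threshold for 3 of the 6 genes tested beside Fgf23, by edgeR's quasi-likelihood test of the difference itself, where 3.94% of all genes were called higher and 1.07% lower. Slc20a1 passed the FDR alone, at -0.63. On the log2 scale the difference, osteocytes minus MSCs, was -2.81 for Phex (SE 0.422, FDR 0.000301), -1.20 for Fam20c (SE 0.10, FDR 3.65e-07) and -1.34 for Slc20a2 (SE 0.0821, FDR 1.46e-08). For Fam20c all FG-4592 libraries lay above vehicle in MSCs and below vehicle in osteocytes. Fgf23 passed the filter on low counts only through the group where it is high, so its value of 5.74 (SE 1.52, FDR 0.00888) is a description and is not counted. It rested on groups with few counts and was 3.42 with an FDR of 0.401 without the third vehicle MSC library.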

How the results depend on the processing

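Of the values recomputed under the alternatives, 551 kept their direction and their call by fold and FDR together, 15 changed direction and 1 lost its call. At FDR alone, Slc20a1, Slc20a2 and Furin in MSCs and Slc20a1 under differentiation also changed side under some alternatives, Slc20a2 with library size alone (FDR 0.00853) and upper-quartile scaling (0.0497), and Furin with only the 6 libraries compared (0.0354) or without the first vehicle osteocyte library (0.0443). Those that changed direction were values that had not passed the test. With library size alone, which moved the median of all genes to -0.13 in MSCs and -0.096 in osteocytes, Fgf23 in MSCs was -0.012 and Furin in osteocytes -0.055. The difference between the Dmp1 responses was 0.00041 with filterByExpr, 0.016 with no filter and 0.0036 with the likelihood ratio test. With 1 library left out, Fgf23 in MSCs ranged from -0.43 to 2.37, Fgf23 under differentiation from -4.64 to 1.46, the Dmp1 difference from -0.58 to 0.94 and the Fgf23 difference from 3.42 to 9.53, losing its call at the lowest. Without any 1 FG-4592 osteocyte library Fgf23 was not tested. The genes most like Fgf23 and Phex depended on the measure: with Spearman's rho 0 of the 5 were shared for either, and with a prior count of 0.5 in place of 2, 3 were shared for Fgf23. With the replicate number as a term (replicate block), 1444, 1678, 2533 and 772 genes were called in MSCs, osteocytes, differentiation and the difference, against 1532, 1732, 2623 and 826 without it, and no member's call changed. Same-numbered libraries correlated at -0.048 to 0.054 in their deviations, so no pairing by number was seen. This covers FG-4592 against vehicle in each cell state and the vehicle groups, but not the FG-4592 groups against each other. The cause of these shifts was not tested. Depth limits Fgf23 and Galnt3, which stood at or near 3 counts in most libraries.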
